A study of Mus musculus with 18 samples.

Results

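Gene expression in the RPE/choroid of mice 1 week after an intravitreal injection of triamcinolone acetonide (TAA) was compared with that after an injection of balanced salt solution (BSS), the solvent. The comparison rests on the 3 arrays titled RPE TAA day 7 and the 3 titled RPE BSS day 7, which are 6 of the 18 arrays of the series. All animals were male C57BL6/J mice, 2 months old according to the labels, and the treatment was 1 injection of 1 μL. It held 25 μg of the steroid in the TAA group and no steroid in the BSS group, and the tissue was taken at day 7. The other arrays hold RNA after 10 μg of dexamethasone (Dex) at day 7 and after all 3 treatments at day 30, with 3 arrays in each group. The replicates are labelled as biological, the retina was removed, and according to the methods extraocular tissue was trimmed off and animals with the best RNA were chosen for hybridization. The methods add that the sclera was taken out during RNA isolation and that most of the choroid likely remained on it. How much choroid the RNA holds is therefore not known. The RNA is that of a mixed tissue, so that fewer cells of a type and less RNA per cell cannot be told apart.

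Triamcinolone acetonide is a synthetic glucocorticoid that is given into the vitreous as a poorly soluble suspension, against macular edema and inflammation. Glucocorticoids enter the cell and bind the glucocorticoid receptor, which moves to the nucleus, binds DNA at pairs of short inverted half-sites and raises target genes, while it restrains genes driven by NF-κB and AP-1. The RPE is the pigmented layer that supports and nourishes the photoreceptors, and the choroid beneath it holds blood vessels, fibroblasts, melanocytes and immune cells.

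For each probe set the deposited log2 values are relative to its median over the 18 arrays. They hold differences between arrays and no level of expression, and whether a tissue marker was present could not be checked. Each probe set was tested with limma, which here took the spread from all 6 groups, and a probe set was called at a Benjamini-Hochberg adjusted p under 0.05. Of 45101 probe sets 1 was called (0.00222%), and it stood higher after TAA. The study itself used a fold change of at least 1.5 together with a p, not adjusted, of at most 0.05. Its p came from an unpaired t-test, after weak signals had been filtered out. Here the same cut-offs, called the study's thresholds, were put on the limma p of all probe sets. They were passed by 204 probe sets, of which 57 were higher after TAA (0.126%) and 147 lower (0.326%). An unadjusted limma p of 0.05 or less alone was reached by 1774 probe sets, where 2255 are expected by chance. The count at the study's thresholds depended on BSS replicate 2: without it 637 probe sets passed, 376 higher and 261 lower. Of the 204, 193 were annotated to 1 gene, and the TAA arrays lay wholly above the BSS arrays in 35 of the 57 and wholly below in 129 of the 147. With one value per gene, the mean of its probe sets, 23 of 18194 genes passed higher (0.126%) and 83 lower (0.456%); without BSS replicate 2 these counts were 95 and 95. If any 1 probe set of a gene was enough, 53 genes passed higher (0.291%) and 121 lower (0.665%), a rule that was added after the data had been seen. A list member counts as passing below where its per-gene value does, and members that passed with a single probe set only are named beside that count. The per-gene values are used for gene lists, and 15 probe sets in each direction are given by probe set. These are the largest differences past the study's thresholds among probe sets of 1 gene whose TAA and BSS arrays did not overlap. Some larger differences with overlap were thus left out, and the lack of overlap in the 15 is a rule of choice and no finding. Of all genes, 4.91% had all 3 TAA arrays above the 3 BSS arrays and 6.54% had them below.

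**Figure D1:**
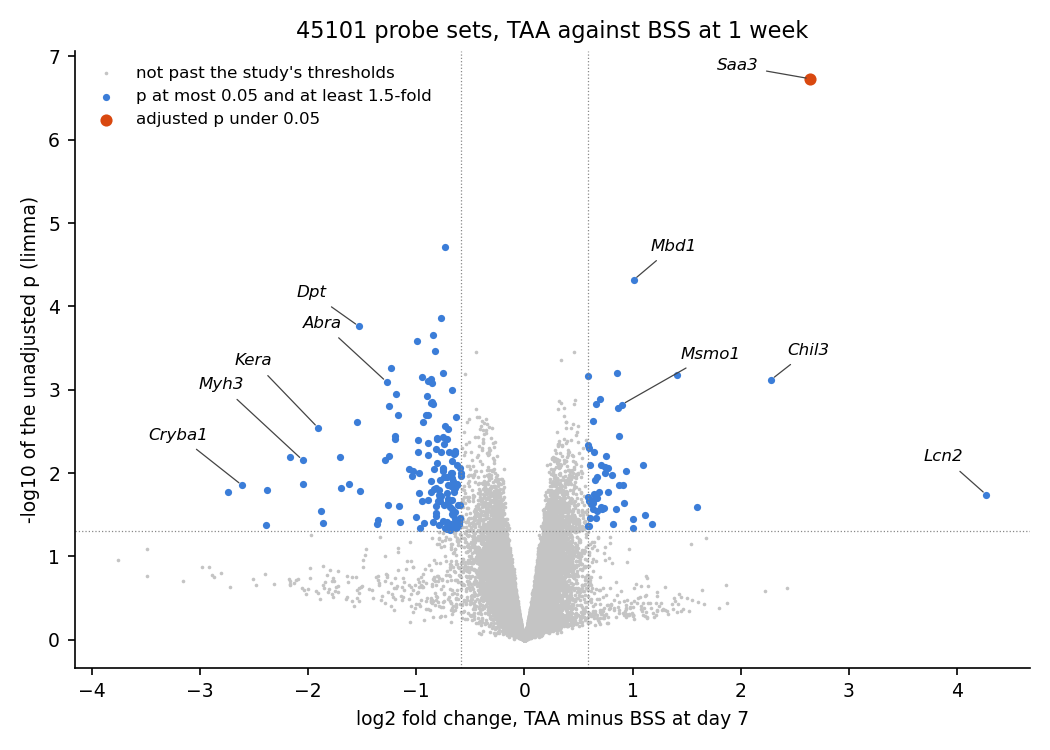
Each point is 1 of 45101 probe sets, with the log2 fold change of TAA minus BSS at day 7 on the x axis and the negative log10 of the unadjusted limma p on the y axis, and dotted lines mark the study's thresholds. Saa3 stands alone at the top with an adjusted p of 0.00836, Lcn2 has the largest fold change past the thresholds, and more blue points lie on the left (147) than on the right (57).

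The largest positive differences were those of 2 secreted proteins of innate defence and of a chitinase-like protein of macrophages, and of these Saa3 alone was called. Saa3, an acute phase apolipoprotein made outside the liver, read 0.13, -0.08 and -0.49 on the 3 BSS arrays and 2.84, 1.92 and 2.73 on the 3 TAA arrays. No BSS array came near the lowest TAA array. Saa3 rose by 2.64 on the log2 scale (SE 0.30, 95% interval 2.01 to 3.27), which is 6.25-fold, with an adjusted p of 0.00836 from limma. Its call was lost without TAA replicate 1 (adjusted p = 0.105), without TAA replicate 3 (0.0549), without BSS replicate 2 (0.0705) and without BSS replicate 3 (0.0547), with log2 fold changes of 2.47, 2.53, 2.68 and 2.47.

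Lcn2 encodes lipocalin 2, a protein that starves bacteria of iron by binding their siderophores. Its values were -1.81, -1.63 and -1.81 on the BSS arrays and 2.91, 2.01 and 2.65 on the TAA arrays, so that both groups were tight and lay far apart. The difference of 4.27 (19.3-fold) was the largest of all probe sets past the study's thresholds. Its SE was 1.62, because the pooled spread includes arrays of other groups that reached 4.61 (BSS day 30) and 4.89 (Dex day 30), and the adjusted p was 0.996. With the 6 arrays of the comparison alone, limma called Lcn2 (adjusted p = 0.00268) as its only probe set, while the adjusted p of Saa3 became 0.154. Chil3, a lectin secreted by alternatively activated macrophages and by some epithelia, read -0.04, -0.80 and 0.18 after BSS and 3.16, 0.79 and 2.23 after TAA. The groups did not overlap, although TAA replicate 2 lay close to the BSS range. The difference was 2.28 (SE 0.54, unadjusted p = 0.000758, adjusted p = 0.996).

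**Figure D2:**
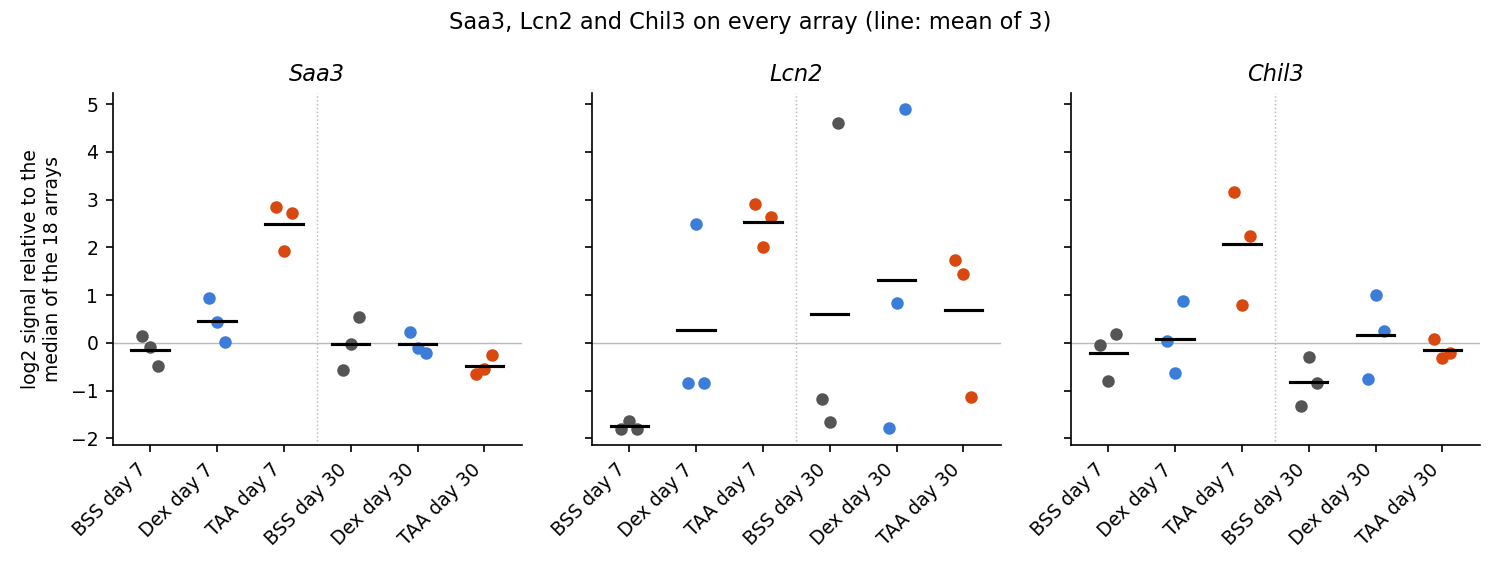
The log2 signal of Saa3, Lcn2 and Chil3 relative to the median of the 18 arrays is plotted for each array of the 6 groups, with a line at the mean of 3. The 3 TAA arrays of day 7 are the highest of all arrays for Saa3, from 1.92 to 2.84, whereas Lcn2 also reaches 4.61 and 4.89 on single arrays of day 30.

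The stretch of 250 bases before the start of these 3 genes and of Per1, the clock repressor and glucocorticoid target described further on, is shown because they stand among the genes that were higher after TAA. Sequences are from RefSeq, build GRCm38.p6, and capitals mark matches to the 4 motifs searched on both strands: TTNNGCAA for C/EBP factors, a motif of NF-κB, ACANNNTGT for the glucocorticoid receptor and CACGTG, the E-box of the clock. The windows are chr7:46715677-46715926 (minus strand) for Saa3, chr2:32387740-32387989 (minus strand) for Lcn2, chr3:106167565-106167814 (minus strand) for Chil3 and chr11:69098699-69098948 (plus strand) for the first of the Per1 starts.
Saa3: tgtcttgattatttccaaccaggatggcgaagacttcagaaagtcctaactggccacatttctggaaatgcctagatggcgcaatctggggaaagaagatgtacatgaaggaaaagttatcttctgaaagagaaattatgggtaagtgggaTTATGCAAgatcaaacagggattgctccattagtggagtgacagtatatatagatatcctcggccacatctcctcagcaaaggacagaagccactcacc
Lcn2: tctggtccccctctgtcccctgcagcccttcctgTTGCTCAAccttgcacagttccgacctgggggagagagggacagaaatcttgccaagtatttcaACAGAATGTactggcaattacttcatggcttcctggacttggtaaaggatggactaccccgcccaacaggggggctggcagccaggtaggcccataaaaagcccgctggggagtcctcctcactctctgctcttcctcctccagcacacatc
Chil3: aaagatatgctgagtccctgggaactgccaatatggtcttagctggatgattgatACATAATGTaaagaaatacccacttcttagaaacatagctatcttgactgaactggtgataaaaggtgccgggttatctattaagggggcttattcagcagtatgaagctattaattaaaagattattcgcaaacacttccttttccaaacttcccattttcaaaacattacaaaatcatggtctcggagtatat
Per1: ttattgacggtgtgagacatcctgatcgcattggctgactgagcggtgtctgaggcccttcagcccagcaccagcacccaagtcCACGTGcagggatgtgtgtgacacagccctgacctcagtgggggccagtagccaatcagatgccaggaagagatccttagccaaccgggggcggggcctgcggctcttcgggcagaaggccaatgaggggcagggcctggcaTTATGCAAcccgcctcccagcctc
The Saa3 window held TTATGCAA, a C/EBP match, starting 99 bases before the start, and the Per1 window held the same 8 letters 24 bases before its start together with CACGTG at 166. The Lcn2 window held a C/EBP match on the opposite strand at 216 and ACAGAATGT, a glucocorticoid receptor match, at 152, and the Chil3 window held ACATAATGT at 195. No matches overlapped. Over all 32851 windows of this length, 9.56% held the C/EBP motif, 1.41% the NF-κB motif, 5.84% the glucocorticoid receptor motif and 6.02% the E-box. Of the 15 genes with the largest positive differences 11 had a window, and of their 15 windows 2 held the C/EBP motif, 2 the glucocorticoid receptor motif, 1 the NF-κB motif and 0 the E-box. These matches describe letters and are no evidence of binding.

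Of 20 acute phase genes 2 passed the study's thresholds, Saa3 and Lcn2, both higher, beside 0.126% of all genes. The median log2 fold change of the list was 0.07, beside 0.00 over all genes. Some of its genes were chosen by the study from these same arrays, so that the list is no independent evidence of direction. Saa1 and Saa2, the serum amyloid proteins of the liver, differed by 0.11 (SE 0.09) and -0.05 (SE 0.15) in the gene fit, and Saa4, the constitutive member, by -0.13 (SE 0.11). Serpina3n, an inhibitor of serine proteases, had a difference of 1.68 (SE 0.85) with TAA replicate 2 at 2.66 and the others at 0.29 and 0.77, against a highest BSS array of 0.02. Ceruloplasmin (Cp), which carries copper, was above BSS on all 3 TAA arrays, by 0.48 (SE 0.38), while haptoglobin (Hp) differed by -0.59 (SE 0.42). Among the 19 measured inducers of the acute phase, 0 passed the study's thresholds by the per-gene value and 1, Cebpd, with a single probe set, and Il6, Il6ra and Il6st, the cytokine and the subunits of its receptor, differed by -0.04, -0.09 and 0.09. The protease inhibitor A2m (0.87, SE 0.31) and complement factor I (Cfi, mean -0.23 after BSS and 0.77 after TAA, SE of the difference 0.46), which cleaves active complement, were among the 15 largest positive differences, with TAA replicate 2 highest for each at 1.18 and 1.62. Without that array the difference of A2m was 0.54 and that of Cfi 0.58.

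Of 24 genes that glucocorticoids are known to induce 20 had a higher value, beside 49.8% of all genes, with a median of 0.22. The study's thresholds were passed by 2, Per1 and Arrdc2, both higher, beside 0.126% of all genes. Without BSS replicate 2 the number that passed was 4 and without BSS replicate 3 it was 1. Per1, which is both a repressor of the clock and a direct receptor target, read 0.03, 0.06 and -0.15 after BSS and 0.87, 0.29 and 0.86 after TAA. All TAA arrays lay above the BSS arrays, and the difference was 0.69 (SE 0.18, unadjusted p = 0.0014). The arrestin-domain gene Arrdc2 went from -0.35, -0.23 and -0.46 to 0.51, 0.05 and 0.29, again with no overlap (difference 0.63, SE 0.17). Of the classical targets, Tsc22d3 (GILZ, an anti-inflammatory leucine zipper protein) differed by 0.28 (SE 0.13), Fkbp5 (a co-chaperone that dampens the receptor) by 0.38 (SE 0.17) and Cebpd (a C/EBP factor) by 0.46 (SE 0.19). These 3 passed with 1 probe set each, so that 5 of the 24 passed by any probe set, beside 0.291% of all genes by that rule. The probe set of Fkbp5 that passed differed by 0.92 (SE 0.36) and its other 2 by 0.25 and -0.04, that of Tsc22d3 by 0.62 (SE 0.25) and its other 3 by 0.56, 0.08 and -0.12, and that of Cebpd by 0.74 (SE 0.30) and its other by 0.18. On the passing probe set of Fkbp5 TAA replicate 1 read 2.11, beside 0.08 and 0.51 on the other TAA arrays and at most 0.33 after BSS. TAA replicate 1 was the highest of the 6 arrays for Tsc22d3 (0.81) and Fkbp5 (0.96), and without it the median of the list was 0.09. In 5 of the 24 genes, Per1, Cebpd, Ddit4 (an inhibitor of mTOR), Glul (glutamine synthetase) and Arrdc2, the TAA arrays lay wholly above BSS, beside 4.91% of all genes. Per1, Cebpd and Arrdc2 were also picked by the study from these same arrays, so that the count is no independent evidence. The receptor gene itself, Nr3c1, differed by -0.12 (SE 0.08), and of 8 measured genes of the receptor and of steroid metabolism 0 passed.

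In the clock, Per1 was the 1 of 5 repressors that passed, beside 0.126% of all genes that passed higher. Cry1 read 0.31, 0.25 and 0.27 after TAA and -0.28, 0.13 and -0.04 after BSS, a difference of 0.34 (SE 0.18), while Per2 and Per3 differed by -0.05 and -0.04. Arntl, the activator Bmal1, was above BSS on all 3 TAA arrays, at -0.22, -0.47 and -0.22 against -0.84, -0.66 and -0.87. Its difference of 0.48 in the gene fit (SE 0.13, unadjusted p = 0.00253) is 1.40-fold. Its 2 probe sets disagreed in size: 1 passed the study's thresholds at 0.75 (SE 0.25, unadjusted p = 0.00855), with all TAA arrays above BSS, and the other differed by 0.22 (SE 0.10). Of the other 3 activators and 15 clock output genes 0 passed, and Nr1d1 and Dbp, which the activators drive, differed by -0.05 and -0.09.

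Metabolic genes were found among the largest positive differences. Msmo1, a demethylase of sterol synthesis, read -0.60, 0.11 and -0.06 on the BSS arrays and 0.95, 0.57 and 0.64 on the TAA arrays with its higher probe set, which makes a difference of 0.90 (SE 0.23, unadjusted p = 0.00151). Of 20 genes of cholesterol synthesis 19 had a higher value, and 7 had all TAA arrays above BSS (Mvd, Fdps, Fdft1, Tm7sf2, Msmo1, Nsdhl and Hsd17b7), beside 49.8% and 4.91% of all genes. Here Msmo1, Fdps and Fdft1 were also picked by the study from these same arrays. The median was 0.19, and 0.12 without BSS replicate 2. By the per-gene value 0 passed the study's thresholds, and 1 did without BSS replicate 2, BSS replicate 3 or TAA replicate 3. By single probe sets 2 passed, Msmo1 as above and Fdft1, squalene synthase, at 0.59 (SE 0.14), while the other probe set of Msmo1 differed by 0.18 and the other 3 of Fdft1 by 0.21, 0.13 and -0.19. The largest were Msmo1 at 0.54 (SE 0.12), Nsdhl at 0.46 (SE 0.15) and Tm7sf2 at 0.45 (SE 0.12). Hmgcs1 and Sqle, early steps of the pathway, differed by 0.10 (SE 0.14) and 0.39 (SE 0.30). Of 11 genes of fatty acid synthesis 0 passed, with a median of -0.01.

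Slc7a5, the light chain of the large amino acid transporter LAT1, read 0.08, 0.24 and -0.12 after BSS and 1.74, 0.62 and 0.46 after TAA, a difference of 0.87 (SE 0.25). Its heavy chain Slc3a2, named after its values had been seen, also passed (0.59, SE 0.18), with 0.65, 0.30 and 0.15 against -0.41, 0.15 and -0.42. For both chains TAA replicate 1 was highest, and without it the difference of Slc7a5 was 0.47. Mbd1, whose product recognises methylated CpG sites, had the smallest p of the 15 largest positive differences after Saa3, with 1.26, 1.17 and 0.53 on the TAA arrays and 0.17, -0.09 and -0.15 on the BSS arrays. The difference was 1.01 (SE 0.18, unadjusted p = 4.81e-05, adjusted p = 0.722). This was 1 of 5 probe sets of Mbd1, and the per-gene value did not pass. On the other probe sets no TAA array exceeded 0.64 and no BSS array of day 7 exceeded 0.30. The remaining genes of the 15 largest positive differences were Lemd1 (1.10), Tmem267 (1.01), Hkdc1, a hexokinase (0.94), Nt5dc2 (0.92), Fndc4 (0.86), 5031425E22Rik (0.86) and the acid-sensing channel Asic3 (0.82).

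Genes of antigen presentation and of the interferon response had mostly lower values, without a call. Of 9 measured MHC class II genes, which show peptides to T cells, 0 had a higher value, beside 49.8% of all genes. The median was -0.47, and 5 had all TAA arrays below BSS, beside 6.54% of all genes. That median was -0.26 without TAA replicate 1 and -0.31 without BSS replicate 2. Of the 9 genes 1 passed the study's thresholds, lower, beside 0.456% of all genes. This was H2-Aa, which read 0.12, 0.30 and 0.08 after BSS and -0.98, -0.29 and -0.29 after TAA (difference -0.69, SE 0.25). It no longer passed without TAA replicate 1, the lowest array, or without BSS replicate 2, while 2 members passed without BSS replicate 3, TAA replicate 2 or TAA replicate 3. Of 18 interferon-induced genes 2 had a higher value, beside 49.8% of all genes, and 2 passed, both lower, beside 0.456%. These were Ifi204, a sensor of DNA (1.17, 0.63 and 0.73 after BSS, 0.02, 0.05 and -0.11 after TAA), and Ifi27l2a (0.83, 0.89 and 0.48 after BSS, -0.24, -0.18 and -0.04 after TAA). Both kept a wide gap between the groups, with differences of -0.86 (SE 0.22) and -0.89 (SE 0.28), while the median of the list was -0.15. H2-Aa and Ifi204 were also picked by the study from these same arrays.

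Of 10 genes of alternatively activated macrophages 1 passed higher (Chil3) and 2 lower, beside 0.126% and 0.456% of all genes. The median was -0.29. Retnla, a secreted protein of the same cells and of adipose tissue, was lower on all TAA arrays at -0.91, -0.50 and -1.24 against 0.03, 0.85 and 0.05 (difference -1.19, SE 0.35), and so was the lectin Mgl2, at -0.51, -0.51 and -0.46 against 0.17, 0.26 and 0.10 (difference -0.67, SE 0.22). Cd163 and Mrc1, scavenger receptors of resident macrophages, differed by 0.18 and -0.11. Of 16 general macrophage genes 0 passed, while 13 had a lower value and 3 a higher one. Their median was -0.13, which was -0.05 without TAA replicate 1 and -0.08 without BSS replicate 2. Csf1r, the growth factor receptor of the lineage, differed by 0.05. In the lists of neutrophils (14 genes), T and NK cells (11), B and plasma cells (5), mast cells (7), chemokines (26) and complement (15), 0 genes passed by the per-gene value. In that order their medians were -0.18, -0.01, -0.05, -0.27, -0.01 and -0.05. The neutrophil median was 0.04 without BSS replicate 1. Of the 7 mast cell genes 0 had a higher value, beside 49.8% of all genes. By single probe sets 1 chemokine passed, Ccl28 at 0.64 (SE 0.20), and 2 complement genes. These were Cfi, whose only probe set had an unadjusted limma p of 0.0459 when fitted among all probe sets and of 0.0504 when fitted among genes, and the regulator Cd55 at -0.67 (SE 0.24). S100a8 and S100a9, the most abundant proteins of neutrophils, differed by -0.34 and -0.26, and Ltf, which neutrophil granules hold along with lipocalin 2, by -0.29.

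**Figure D3:**
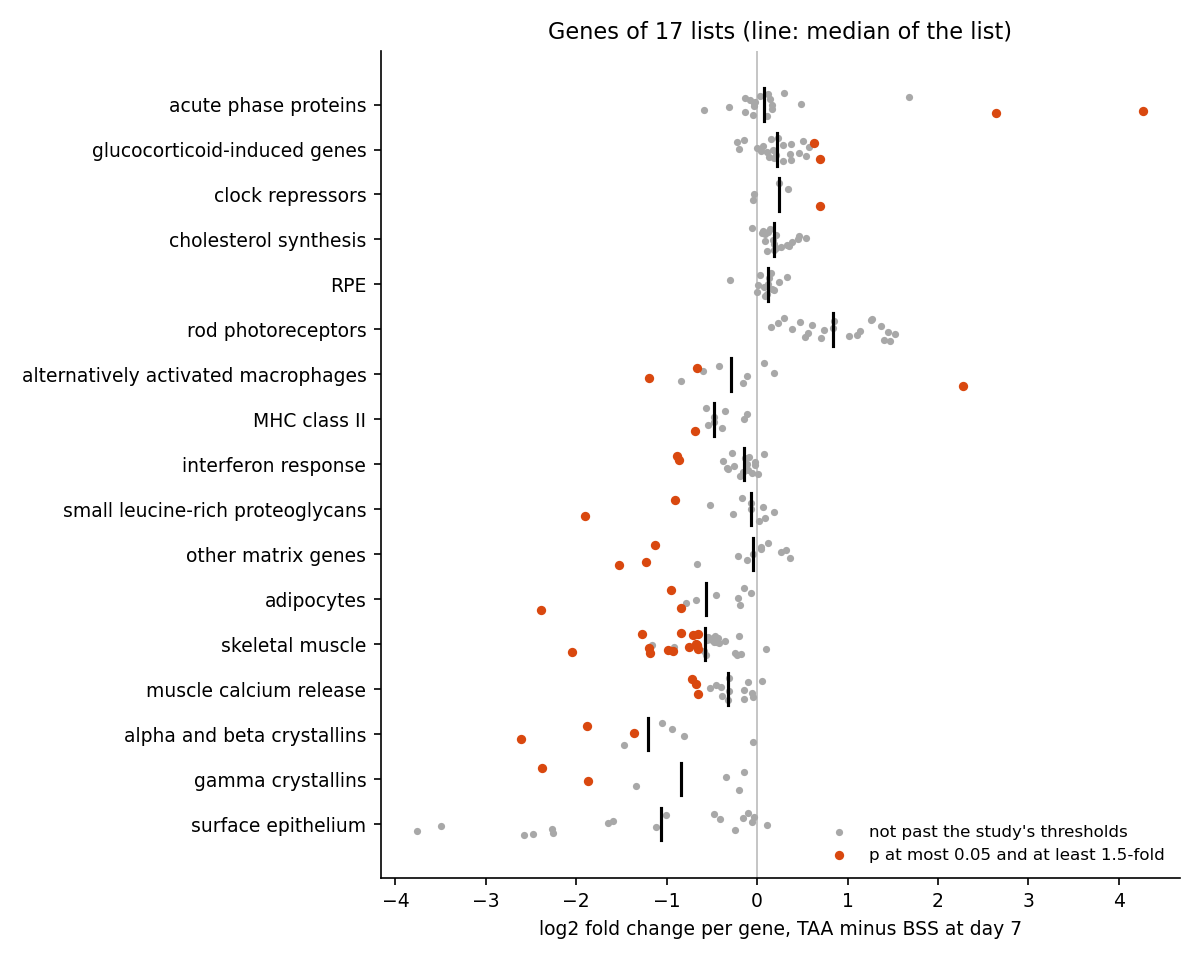
Points are the log2 fold changes per gene of TAA minus BSS at day 7 in 17 lists, with genes past the study's thresholds in orange and a line at the median of each list. The muscle, crystallin and adipocyte lists lie to the left of 0, with medians from -1.20 to -0.57, and the glucocorticoid-induced and cholesterol lists slightly to the right, with medians of 0.22 and 0.19.

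Skeletal muscle was the list with the most genes past the study's thresholds. Of 34 measured muscle genes 33 had a lower value and 14 passed the study's thresholds, all lower, beside 0.456% of all genes. The count lay between 10 and 21 when any 1 of the 6 arrays was left out, and by any probe set it was 17. The median was -0.57, and 19 genes had all TAA arrays below BSS, beside 6.54% of all genes. Some of these genes, and some of the calcium release genes, were chosen by the study from these same arrays. Myh3, the embryonic myosin heavy chain, which the extraocular muscles keep in the adult, read 0.03, 0.55 and 1.20 after BSS and -1.24, -1.44 and -1.68 after TAA. The groups were far apart, and the difference was -2.05 (SE 0.67). Abra, an actin-binding protein of striated muscle, had tight groups, with 0.33, 0.11 and 0.31 against -1.10, -0.89 and -1.08 (difference -1.27, SE 0.31). Tnnt1, the slow troponin T, and Myh2, the myosin of fast oxidative fibers, differed by -1.20 (SE 0.36) and -1.19 (SE 0.30). For the tropomyosin gene Tpm3, which is outside the lists, 2 of 5 probe sets were among the 15 largest negative differences, at -1.62 (SE 0.58) and -1.55 (SE 0.43). Its per-gene difference was -0.61 (SE 0.23). After Dex these 2 probe sets differed from BSS by -2.20 and -1.76. Acta1 and Ckm, the skeletal actin and creatine kinase, differed by -0.22 (SE 0.26) and -0.48 (SE 0.25) and did not pass.

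Of 16 genes of muscle calcium release 3 passed, all lower, beside 0.456% of all genes, with a list median of -0.32. Trdn, the triadin that anchors the release channel, read 0.45, 0.21 and 0.12 after BSS and -0.14, -0.34 and -0.69 after TAA (difference -0.65, SE 0.22). Srl (sarcalumenin) and Sln (sarcolipin, an inhibitor of the calcium pump) differed by -0.67 (SE 0.23) and -0.72 (SE 0.30). Of the 2 probe sets of Sln, 1 was among the 15 largest negative differences, at -1.36 (SE 0.59), and differed from BSS by -1.44 after Dex. The per-gene differences of Trdn, Srl and Sln from BSS after Dex were -0.31, 0.02 and -0.72. Ryr1, the release channel, and the pump Atp2a1 differed after TAA by -0.39 (SE 0.24) and -0.10 (SE 0.34). Without TAA replicate 1 the number that passed was 5 and without TAA replicate 3 it was 0. By any probe set it was 4, with Asph, the gene of junctin, whose 6 probe sets ranged from -0.90 to 0.40. The 15 genes of smooth muscle did not share the shift: 0 passed, and the median was -0.03.

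The values after Dex, set against the same BSS arrays, were unequal among the 14 muscle genes. Myh3, Tnnt1 and Myh8 (perinatal myosin) were low after Dex as well, with differences of -1.66, -1.01 and -0.88 from BSS beside -2.05, -1.20 and -0.93 after TAA. Myl1, Tnnt3 and Pvalb, of fast fibers, differed after Dex by -0.02, 0.03 and 0.18, beside -0.98, -0.76 and -0.84 after TAA. The difference between the steroids was largest for Pvalb, a calcium buffer, at -1.02 (SE 0.22, unadjusted p = 0.000349). Doses differed between the steroids, at 25 μg and 10 μg, and these genes were grouped after their values had been seen.

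**Figure D4:**
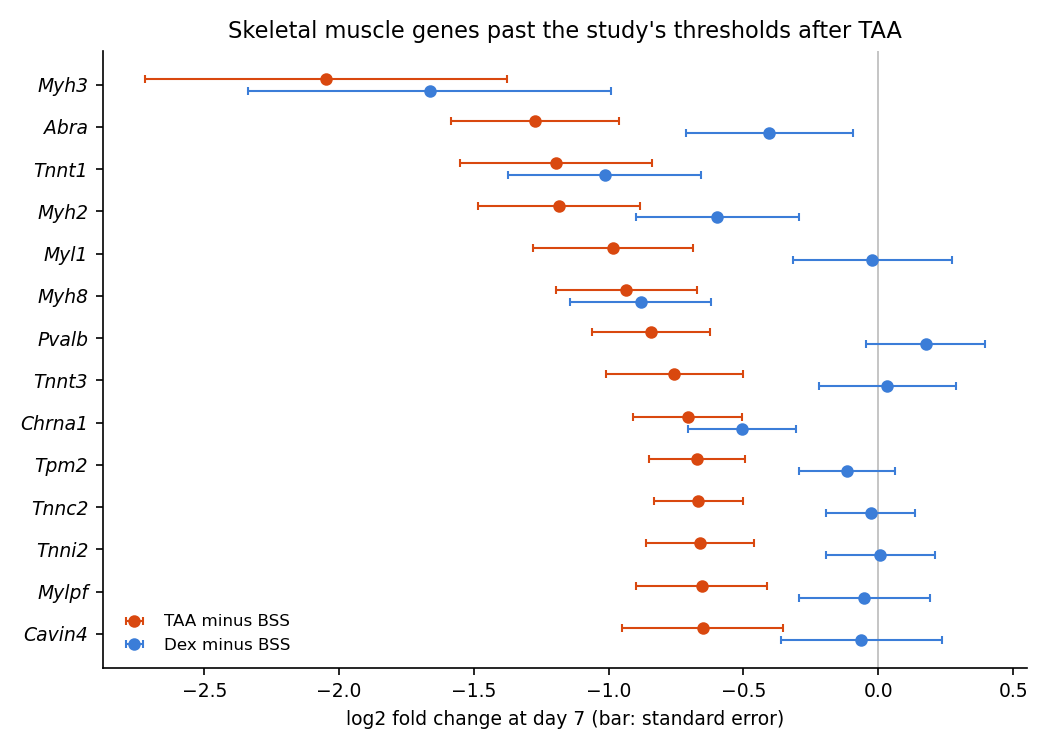
For the 14 muscle genes past the study's thresholds, the log2 fold change at day 7 is plotted for TAA minus BSS (orange) and Dex minus BSS (blue), with bars of 1 standard error. All TAA values lie between -2.05 and -0.65, and the Dex values between -1.66 and 0.18; both share the 3 BSS arrays.

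Lens crystallins, the structural proteins of lens fibers, held the most negative of the named differences. Of 8 α and β crystallins 0 had a higher value, and the median was -1.20. In 7 all TAA arrays lay below BSS and 3 passed the study's thresholds, lower, beside 6.54% and 0.456% of all genes. Of 6 measured γ crystallins 2 passed, both lower, beside the same 0.456%, with a median of -0.84. Here too the study had chosen members from these arrays. Cryba1 read 0.49, -0.02 and 0.68 after BSS and -0.57, -3.40 and -2.71 after TAA, a difference of -2.61 (SE 0.94). Crygs followed the same order, with 0.54, -0.03 and 0.55 against -0.68, -3.06 and -2.36 (difference -2.38, SE 0.88). Crybb2, Crygd and Cryba4 differed by -1.88 (SE 0.78), -1.87 (SE 0.83) and -1.36 (SE 0.61), also with all TAA arrays below BSS. In Cryba1 and Crygs TAA replicates 2 and 3 were far lower than replicate 1, and 0 of the α, β or γ crystallins passed when either of them was left out. Without BSS replicate 1 or BSS replicate 3, 1 passed in each list, and without TAA replicate 1 the γ list had 3. Cryab, a small heat shock protein that many tissues make, differed by -0.05 (SE 0.11). Of 8 other lens genes 0 passed, and Bfsp1 (filensin) and Mip (the lens aquaporin) differed by -0.61 (SE 0.32) and -0.23 (SE 0.64).

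Genes of fat cells had lower values too. Of 10 adipocyte genes 0 had a higher value and 3 passed, lower, beside 0.456% of all genes. The median of the list was -0.57, which was -0.35 without BSS replicate 2. Adipoq, the hormone adiponectin, read 2.14, 3.85 and -0.36 after BSS and -0.93, -0.14 and -0.47 after TAA, so that BSS replicate 3 lay within the TAA range and the other BSS arrays far above it. The difference was -2.39 (SE 1.10), and Fabp4, a carrier of fatty acids, and Car3, a carbonic anhydrase, differed by -0.84 (SE 0.35) and -0.95 (SE 0.40). For Fabp4 the 2 probe sets among the 15 largest negative differences gave -1.70 (SE 0.62) and -1.52 (SE 0.56). Cyp2e1, a cytochrome P450 that fat and liver express, read 1.05, 1.86 and 0.35 after BSS and -0.32, -0.36 and 0.07 after TAA (difference -1.29, SE 0.41). The number of adipocyte genes that passed was 0 without BSS replicate 1, BSS replicate 2 or TAA replicate 2, 1 without TAA replicate 1 or TAA replicate 3, and 5 without BSS replicate 3.

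Kera, the keratocan of corneal and scleral stroma, read 1.34, 1.69 and 0.18 after BSS and -1.75, -0.25 and -0.50 after TAA (difference -1.91, SE 0.54). Of the 11 small leucine-rich proteoglycans it passed with Epyc (-0.91, SE 0.25), both lower, beside 0.456% of all genes. Dcn and Lum, the most widespread members, differed by 0.02 and 0.09. Among 13 other matrix genes 3 passed, all lower, beside 0.456% of all genes, with a list median of -0.05. Dpt (dermatopontin) had the smallest p of the 15 largest negative differences, with 0.72, 1.01 and 0.34 against -1.60, -0.35 and -0.57 (difference -1.53, SE 0.31, unadjusted p = 0.000174). The Wnt antagonist Sfrp4 and the peptidase inhibitor Pi16, a marker of adventitial fibroblasts, differed by -1.23 (SE 0.29) and -1.12 (SE 0.24). In each of these genes TAA replicate 1 was the lowest array, whereas in Cryba1 and Crygs it was the highest of the 3 TAA arrays. Of 19 collagens 1 passed, Col10a1, higher by 0.72 (SE 0.30), beside 0.126% of all genes that passed higher.

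Retinal and epithelial genes varied between arrays of one group. Genes of surface epithelium, such as the keratins Krt4 and Krt5, averaged 1.30, -0.94 and 0.24 on the BSS arrays and -1.49, -1.63 and -0.22 on the TAA arrays, which overlap. Their median was -1.07, which was -0.35 without BSS replicate 1 and -1.69 without BSS replicate 2, and 0 of 18 passed. All 22 rod genes had a higher value, with a median of 0.84 and 0 past the thresholds; their mean was -1.09, -0.74 and -0.49 after BSS and -0.22, -1.22 and 1.77 after TAA. Without TAA replicate 3 that median was 0.06. Rod and clock genes, too, were in part chosen by the study from these arrays. The same array stood highest in the means of cone genes (0.65) and synaptic genes (1.05), lists whose medians were 0.20 and 0.39 and without it -0.13 and 0.17. Of 9 cone, 10 synaptic, 5 bipolar and 10 amacrine and ganglion cell genes 0 passed, and the last 2 lists had medians of 0.27, which was 0.15 without TAA replicate 3, and 0.07. Of 14 RPE genes 0 passed as well, and 13 had a higher value, beside 49.8% of all genes. Their differences lay between -0.30 and 0.33. The median of 0.12 was 0.05 without BSS replicate 1, 0.04 without TAA replicate 1 and 0.22 without BSS replicate 2. Means of the RPE list overlapped, at -0.18, 0.22 and -0.03 after BSS and 0.19, 0.06 and 0.05 after TAA. Rpe65, the isomerase of the visual cycle, differed by 0.09 (SE 0.11). In the muscle list the means were 0.17, 0.28 and 0.10 against -0.20, -0.59 and -0.63, and in the α and β crystallins 0.30, -0.02 and 0.35 against -0.41, -1.52 and -1.26. The part that lens, muscle, fat, epithelial and retinal RNA may have in the other differences was not tested.

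**Figure D5:**
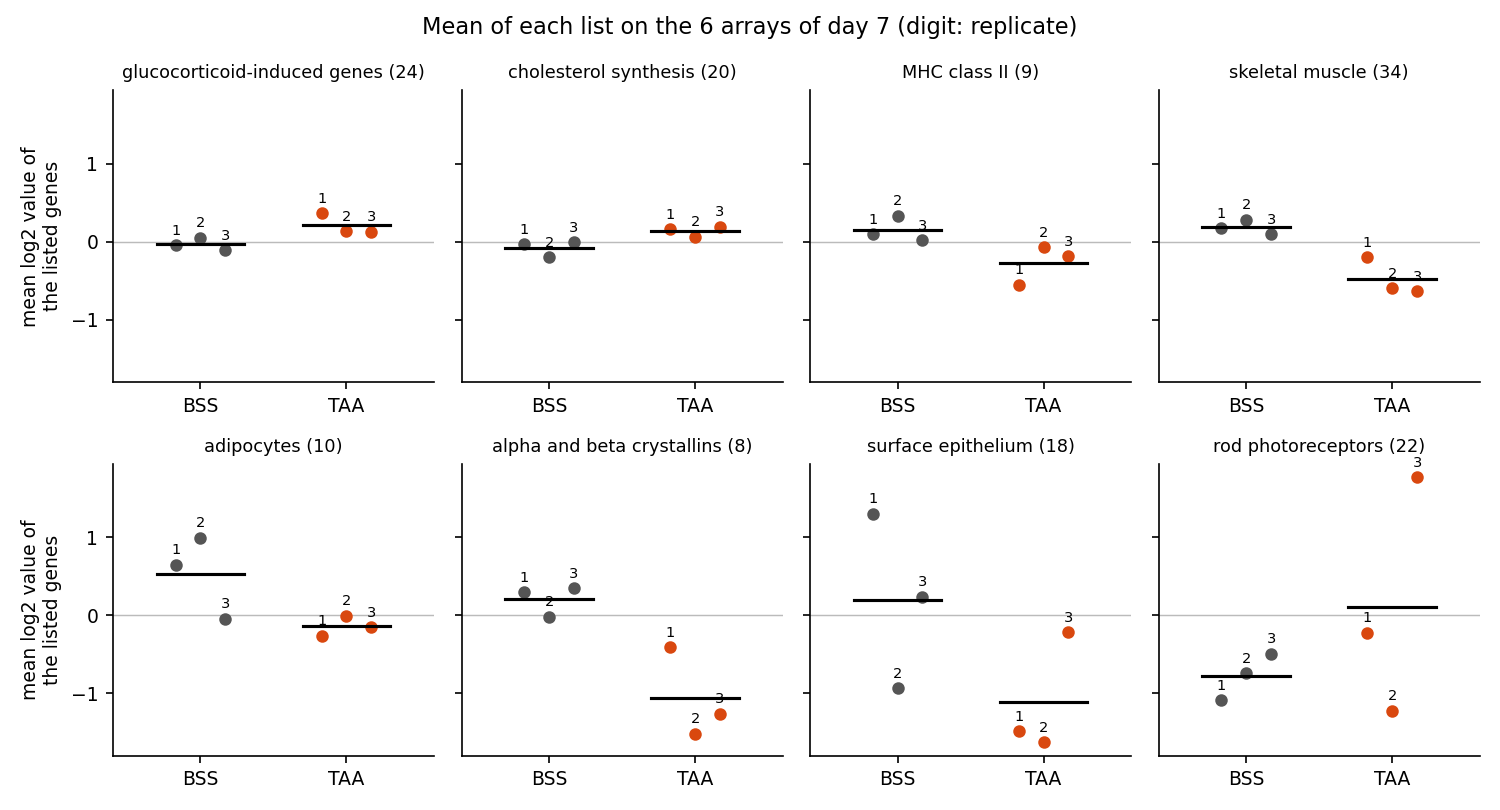
Each panel plots the mean log2 value of the listed genes (number in brackets) on the 3 BSS and the 3 TAA arrays of day 7, with the replicate number above each point and a line at the group mean. Muscle and crystallin means do not overlap between the groups, whereas rod genes are high on TAA replicate 3 alone (1.77) and surface epithelium ranges from 1.30 to -1.63.

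Over all 45 lists, 16 had a member past the study's thresholds and 29, with 360 list entries, had none by the per-gene value; by any probe set 24 had none. The lists with none by either count included endothelium (median 0.09), proteases (0.09), Müller glia (0.11), melanin synthesis (0.07) and glutamate receptors and transporters (0.03). They also included clock output genes (0.07), red blood cells (-0.06) and Schwann cells (-0.28). In the list of genes tied to steroid glaucoma 1 of 8 passed, higher, beside 0.126% of all genes. This was Thbs1, an activator of TGF-β, at 0.64 (SE 0.29), with 0.15, 0.82 and 0.14 against -0.15, -0.77 and 0.12. In the prostaglandin list 1 of 12 passed, lower, beside 0.456% of all genes. This was the receptor Ptger3, at -0.60 (SE 0.17), with -0.40, -0.39 and -0.07 against 0.41, 0.32 and 0.21. In both genes the groups did not overlap. The receptor Ptger4 passed with 1 of its 2 probe sets, at -0.64 (SE 0.23), and the other differed by -0.22. Of the 106 genes past the thresholds 43 were in a list and 63 were not. Among those outside, and named after their values had been seen, were Folr2 (-0.85, SE 0.22), a folate receptor, Lyve1 (-0.61, SE 0.18), a hyaluronan receptor, and Myf6 (-0.79, SE 0.30), a factor of muscle differentiation. Folr2 and Lyve1 are found on resident macrophages. Of the 16 general macrophage genes 0 passed, while 13 had a lower value and 3 a higher one, with a median of -0.13. Cd163, Mrc1 and Csf1r, other markers of these cells, differed by 0.18, -0.11 and 0.05.

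TAA was also set beside Dex at day 7, at unequal doses, with 0 of 45101 probe sets called by limma and 1217 whose unadjusted p was at most 0.05. Saa3 had the smallest adjusted p, higher after TAA by 2.03 (SE 0.30, 95% interval 1.40 to 2.66, adjusted p = 0.223). Its Dex arrays read 0.94, 0.44 and 0.02, all below the lowest TAA array. Chil3 was higher than after Dex by 1.97 (95% interval 0.81 to 3.13) and the 1 probe set of Mbd1 described above by 0.96 (0.57 to 1.34). For Lcn2 the interval was -1.19 to 5.69, and 1 Dex array reached 2.49 while the others were at -0.85 and -0.83.

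At day 30 the TAA arrays read -0.66, -0.54 and -0.26 for Saa3 and the BSS arrays -0.56, -0.02 and 0.54. The effect of TAA at day 7 exceeded that at day 30 by 3.12 (SE 0.42, 95% interval 2.23 to 4.01, adjusted p = 0.082), and 0 probe sets were called in this test of the difference, with 1366 whose unadjusted limma p was at most 0.05. For Lcn2 and Chil3 the differences between the days were 4.18 (95% interval -0.68 to 9.05) and 1.61 (-0.03 to 3.25). Cryba1 differed from BSS by -1.73 (SE 0.94) at day 30 beside -2.61 at day 7, and the median of the α and β crystallins was -1.21 beside -1.20. The muscle list had a median of -0.30 at day 30 beside -0.57, and the glucocorticoid-induced list 0.14 beside 0.22.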

How the data were processed

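RNA of mouse RPE/choroid was hybridized to Affymetrix mouse genome arrays, 3 per group and 18 in all. The authors deposited log2 values, normalized by RMA in GeneSpring and set relative to the median of all samples, and a study filter on weak signals could therefore not be repeated here. The labels name a two-cycle labelling protocol and the methods another kit, and no batch or scan date is given in the sources used here. The number of arrays limits the precision, and 3 against 3 arrays allow an exact two-sided permutation p of 0.1 at best. Of 45101 probe sets, 34958 were annotated to 1 gene, 932 to several and 9211 to none, and 34754 matched RefSeq (GRCm38.p6).

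limma 3.58.1 (R 4.3.3) was fitted to all 18 arrays as 6 group means, with Benjamini-Hochberg adjustment over all probe sets, and again to 18194 genes as the mean of each gene's own probe sets. Intervals are 95%. Named were the called probe sets, the Saa family with Lcn2, and for lists up to 4 members that passed and 3 where none did. Also named were the 15 largest differences in each direction past the study's thresholds, among probe sets of 1 gene without overlap between the groups. Other list members were named for their role. The members and the 45 lists, of which 577 of 629 genes were measured, were chosen with earlier results of these data known. The fit was tested on simulated data. Alternatives were the 6 or 9 arrays alone, a replicate block, array weights, a robust prior, median centring, a filter on SD, the methods' t-test, 1 probe set per gene, any probe set of a gene and each array left out.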

Additional observations from a re-analysis of the deposited data

How the results depend on the processing

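The log2 fold change of Saa3 was 2.64 with the 6 arrays of the comparison, the 9 arrays of day 7 or the methods' t-test, where its limma or t-test adjusted p was 0.154, 0.167 and 0.865, so that its call was lost. It lay between 2.47 and 2.93 when 1 array was left out. Called probe sets numbered 1 with the 6 arrays (Lcn2 in place of Saa3), 0 with the 9 arrays of day 7 (2742 at an unadjusted p of 0.05 or less), 0 by the methods' t-test (2259) and 0 to 1 when 1 array was left out. At the study's thresholds 322 probe sets passed with the 6 arrays, 338 with array weights and 148 to 637 when 1 array was left out. The methods' t-test at these thresholds gave 143. For genes the count was 161 with array weights, 161 with the probe set of largest SD per gene, 174 with any 1 probe set of a gene (chosen after seeing the data) and 81 to 190 when 1 array was left out. TAA against Dex gave 1 called probe set with array weights (Saa3), and the difference between the days gave 1 without the probe sets of lowest SD and 0 to 1 when 1 array was left out. The cause of these shifts was not tested. Of 525 values of the 35 named probe sets under 15 settings, 60 no longer passed the study's thresholds and 0 were counted as reversed. The 35 include the probe sets of Saa1, Saa2 and Saa4, which had not passed in the main fit and so had no pass to lose. A change of sign was counted only where the probe set had passed. That 0 was largely fixed in advance. The 15 in each direction were picked without overlap between the groups, so that leaving out 1 array could not reverse them.

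Whether the replicate numbers pair the samples could not be settled with 3 arrays per group. Deviations of same-numbered arrays from their group means correlated at -0.05, 0.25 and 0.17, and 2 of the 3 TAA arrays correlated best with their own number. With the replicate number as a block the adjusted limma p of Saa3 was 0.035 at a log2 fold change of 2.64, with 1 probe set called, 200 probe sets at the study's thresholds and 96 genes.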
